A study of Homo sapiens with 42 samples.

Results

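Chromatin accessibility after 24 h and 48 h of EGF was compared in MCF10A cells, a non-tumorigenic human mammary epithelial line usually grown with EGF. The members were the 4 EGF libraries of 48 h (replicates A to D) and the 4 of 24 h (A to D), 8 of the 42 libraries analysed here, chosen by their titles. All 8 held cells plated on collagen I and kept overnight in medium with horse serum, hydrocortisone, cholera toxin and antibiotics but no EGF or insulin. They then received EGF at 10 ng/ml in the same fresh medium and were harvested for ATAC-seq, which cuts open chromatin with a transposase. For context, the other conditions were set beside them: untreated cells at 0 h (CTRL, 4 libraries), and PBS vehicle, HGF at 40 ng/ml, OSM at 10 ng/ml, IFNG at 20 ng/ml with EGF and TGFB at 10 ng/ml with EGF (each with 3 libraries at 24 h and 3 at 48 h). The cells kept dividing under EGF, so time under ligand and cell density cannot be told apart in this design, and all libraries came from 1 collection of 1 cell line.

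EGF binds the receptor tyrosine kinase EGFR, which signals through RAS and ERK. A classical endpoint of that pathway is AP-1, the dimer of FOS and JUN family proteins, whose motif is common in enhancers of mammary epithelial cells. C/EBP factors are leucine zipper proteins linked to epithelial differentiation, and TEAD factors bind DNA for the density-sensitive coactivators YAP and TAZ. Of the 10 basal mammary markers, 9 had a site within 1000 bp of a start with a peak in at least 2 of the 8 libraries, and 6 had one in all 8. Of the 10 luminal markers, 5 and 3 did. Such a site was found for 1 of 6 fibroblast, 1 of 6 endothelial, 1 of 6 blood cell and 1 of 6 hepatocyte markers, and only the blood cell one was in all 8.

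The accessible sites that moved most are shown first as sequence, since the results below turn on the motifs they carry. Each run is the plus strand of hg38 from 100 bases before to 100 after the centre summit of the site, and capitals mark the AP-1 motif (TGANTCA, its own reverse complement) and the C/EBP motif (TTGCNNAA on either strand), which do not overlap here. Sites are named by the nearest start of a protein-coding gene, which need not be the gene they regulate. The 2 sites with the largest rise from 24 h to 48 h lay at chr20:20772799-20772999, 60255 bp from RALGAPA2, and at chr4:142777519-142777719 in an intron of INPP4B. The site at chr11:34640336-34640536, in an intron of EHF, was added after its values were seen because it held 2 C/EBP matches.
RALGAPA2: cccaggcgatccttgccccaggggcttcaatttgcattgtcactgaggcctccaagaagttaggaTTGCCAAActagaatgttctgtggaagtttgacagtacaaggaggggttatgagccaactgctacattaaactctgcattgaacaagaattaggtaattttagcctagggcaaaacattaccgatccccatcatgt
INPP4B: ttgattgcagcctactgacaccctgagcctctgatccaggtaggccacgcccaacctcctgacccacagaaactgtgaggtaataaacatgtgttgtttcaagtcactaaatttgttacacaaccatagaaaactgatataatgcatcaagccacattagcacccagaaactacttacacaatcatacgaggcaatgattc
EHF: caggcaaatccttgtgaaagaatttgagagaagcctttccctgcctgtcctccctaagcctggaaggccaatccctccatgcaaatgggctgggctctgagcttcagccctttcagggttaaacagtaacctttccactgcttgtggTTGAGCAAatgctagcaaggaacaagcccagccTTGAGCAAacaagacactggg

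The 3 sites with the largest fall lay at chr9:105280818-105281018 in an intron of SLC44A1, at chr1:230542148-230542348, 100233 bp from COG2, and at chr1:235708641-235708841, 57987 bp from GNG4 in an intron of LYST. The site at chr11:35214871-35215071, in an intron of CD44, was added after its values were seen because it held 2 AP-1 matches. The RALGAPA2 window held 1 C/EBP match and no AP-1 match. The SLC44A1 window held 1 AP-1 match, the COG2 window 2, and the INPP4B and GNG4 windows neither motif.
SLC44A1: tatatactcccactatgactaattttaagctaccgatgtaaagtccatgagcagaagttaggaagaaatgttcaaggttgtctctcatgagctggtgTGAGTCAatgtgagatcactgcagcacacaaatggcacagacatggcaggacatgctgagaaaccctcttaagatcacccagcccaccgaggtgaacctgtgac
COG2: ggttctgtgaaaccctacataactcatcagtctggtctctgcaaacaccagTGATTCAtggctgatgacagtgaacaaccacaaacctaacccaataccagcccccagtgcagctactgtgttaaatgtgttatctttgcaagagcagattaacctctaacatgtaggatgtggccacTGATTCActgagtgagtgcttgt
GNG4: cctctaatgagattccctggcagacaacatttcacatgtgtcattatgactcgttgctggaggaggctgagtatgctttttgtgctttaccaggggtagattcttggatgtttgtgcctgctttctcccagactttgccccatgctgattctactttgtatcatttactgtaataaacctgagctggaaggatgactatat
CD44: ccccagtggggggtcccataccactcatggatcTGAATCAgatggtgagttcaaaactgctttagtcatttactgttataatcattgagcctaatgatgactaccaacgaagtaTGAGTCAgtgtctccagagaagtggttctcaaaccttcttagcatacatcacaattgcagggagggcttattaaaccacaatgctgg

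Peak lists were of similar size at the 2 times. Replicates A to D of 24 h held 51336, 37833, 72031 and 85276 peak regions on the autosomes and X, and those of 48 h held 61046, 67412, 73764 and 67611. The 24 h libraries spanned the 48 h range on both sides, and the means of 61619 ± 21131 and 67458 ± 5193 (SD, n = 4 each) did not differ beyond that spread (difference of 0.0589 in log10, exact permutation test, two-sided p = 0.543, where 4 against 4 libraries allow no p below 0.0286). The share of summits within 1000 bp of a protein-coding start was 27.6%, 27.9%, 22.5% and 20.4% at 24 h and 25.8%, 23.5%, 22.4% and 22.7% at 48 h (exact permutation p = 0.714). Median fold enrichment over local background averaged 6.59 ± 0.698 for the 24 h libraries and 6.89 ± 0.472 for the 48 h ones (SD, n = 4 per time, exact permutation p = 0.514). Background coverage was 1.07 ± 0.208 and 0.979 ± 0.148 fragments per base (SD, n = 4 each, exact permutation p = 0.543).

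EGF 24 h replicate B stood apart. It shared fewer sites with the other 7 libraries (Jaccard index of 0.453 to 0.608) than the 48 h libraries shared among themselves (0.714 to 0.759), and the study's own quality filter left it out. Without it the difference in peak number turned to -0.00486 in log10. Calls below are therefore also given without this library, and without replicates A and B of 24 h together, the 2 libraries with the fewest peaks.

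**Figure D1:**
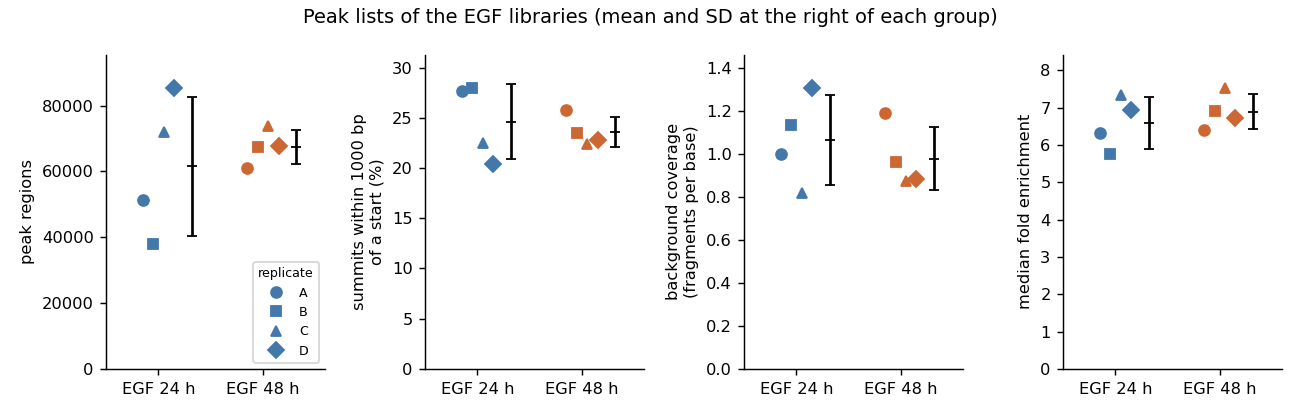
Values of the 8 EGF peak lists, from left to right the number of peak regions, the share of summits within 1000 bp of a protein-coding start (%), the background coverage (fragments per base) and the median fold enrichment. Points are libraries, marked by replicate, and the bar beside each group is the mean with SD. The 24 h libraries spread from 37833 to 85276 regions, around the 61046 to 73764 of 48 h.

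Merging the peaks of the 8 libraries gave 108738 sites, of which 84482 had a peak in at least 2 libraries and 29244 in all 8. Detection (peak or no peak) was adjusted for peak number by subtracting, for each library, the share of sites seen in equally many libraries that it detected. No site was called in this test (0% of 84482 in either direction by limma, where a call needed an adjusted p under 0.05 together with an effect of 0.5 or more), with 5040 sites at an unadjusted p below 0.05, 1848 of them higher at 48 h. Without EGF 24 h A, 646 of 3810 such sites were higher, and without EGF 24 h C 5597 of 6870. Their main direction thus still moved with single libraries. In the fit of all 8 libraries, the smallest adjusted p was 0.594. Sites with a peak in all 4 libraries of one time and in none of the other had an adjusted p of 0.594 too, with unadjusted p of 0.00266 for those seen at 48 h and 0.000866 for those seen at 24 h. The test could thus call no site even for a complete switch, and the 0 says little.

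Complete switches are given here as a description. A peak was present in all 4 libraries of 48 h and in none of 24 h at 300 sites (0.355% of 84482), and in all 4 of 24 h and in none of 48 h at 77 (0.0911%). The 24 h libraries B and A had the fewest peaks, which moves with the larger number of sites seen at 48 h alone. The 2 sets differed in motif content. Of the 77 seen at 24 h, 49 (63.6%) held an AP-1 motif within 100 bp of the centre, against 33 (11%) of the 300 seen at 48 h and 39.6% of all 84482 sites. A C/EBP motif was in 2 (2.60%) and 65 (21.7%) respectively, and in 14.0% of all sites. Promoter-proximal sites were few in both, 1 of 77 and 11 of 300, beside 15.9% of all sites.

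By the tie rule, the switch sites named are those of highest fold enrichment, and none passed the detection test. The site in an intron of CDON, a cell surface co-receptor of hedgehog signaling, had no peak at 24 h and summit pileups of 29, 31, 30 and 18 fragments at 48 h. The site in an intron of TCF12, which encodes a helix-loop-helix factor, had none at 24 h and 21, 20, 23 and 11 at 48 h. In the other direction, the site in an intron of RGS9, a regulator of G protein signaling, had 19, 19, 31 and 36 fragments at 24 h and no peak at 48 h. The site 153771 bp from RASA1, a GTPase-activating protein for RAS, had 20, 17, 24 and 39 at 24 h and no peak at 48 h. RGS9, RASA1 and the sites near TMEM65, NUP210L and HS6ST3 made up the 5 named falls, and each held an AP-1 motif.

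Quantitative differences were measured on the 29244 sites with a peak in all 8 libraries. The summit pileup is the number of fragments stacked at the strongest summit of a site. It was recovered from the fold enrichment and the −log10 p, put on a log2 scale and quantile-normalized, so that a difference is relative to the other sites. This measure was chosen after seeing the data. By summit pileup, 187 sites rose at 48 h (0.639% of those tested) and 461 fell (1.58%; limma, adjusted p below 0.05). The sites that rose did so by a median of 0.78 on the log2 scale and those that fell by 0.82, from a median normalized pileup of 40.95 fragments at 24 h to 22.4 at 48 h for the latter and from 25.4 to 43.8 for the former. The median difference over all tested sites was 0.02. A change of at least 2-fold was reached by 27 of the 187 and 94 of the 461. The normalized values of the 2 groups did not overlap at 173 of the 187 and 428 of the 461, where 3.59% of all tested sites did not overlap in the upward and 4.9% in the downward direction.

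The count was lower without single libraries (245 to 552 calls), and 499 were called without EGF 24 h replicate B (179 higher, 320 lower), with 405 of them among the 648 (137 and 268). Without 24 h replicates A and B together, 176 rose and 191 fell, with 104 and 159 of them among the main calls. With division by background coverage in place of quantile normalization, the median of all sites shifted by 0.38 and 1 site was called, so the directions given are those relative to the bulk of sites. By fold enrichment, 1 site rose (0.00342%) and 13 fell (0.0445%), with 2789 sites at an unadjusted p below 0.05. All 14 kept their call when array weights, cyclic loess or median centring were used, and none did without EGF 24 h replicate A, EGF 24 h replicate C, EGF 48 h replicate A or EGF 48 h replicate D.

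**Figure D2:**
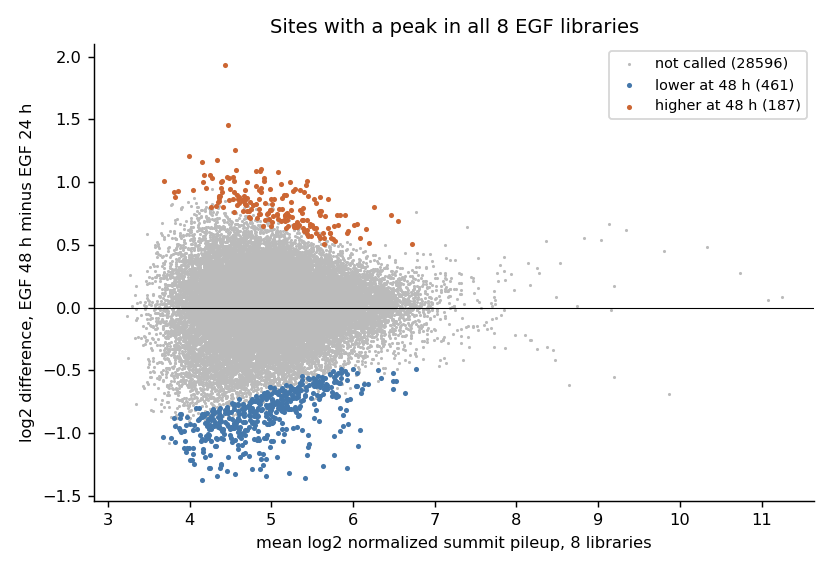
Log2 difference in normalized summit pileup (EGF 48 h minus EGF 24 h, vertical) against the mean log2 normalized pileup over the 8 libraries (horizontal) for the 29244 sites with a peak in all 8. Orange points are the 187 sites that rose, blue points the 461 that fell and gray points the sites not called.

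The changes were distal. Of the 461 sites that fell, 4 were promoter-proximal (0.868%), 178 intronic, 8 exonic and 271 intergenic. Of the 187 that rose, 11 were promoter-proximal (5.88%), 88 intronic, 3 exonic and 85 intergenic. Among all tested sites 29.6% were promoter-proximal. Promoter-proximal sites as a class had a median difference of 0.08 and distal ones of -0.02 (8668 and 20576 sites). GC content within 100 bp of the centre had a median of 45.3% in the sites that fell, 52.7% in those that rose and 48.3% in all distal sites, and its part in the result was not tested.

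The strongest rise was at the site near RALGAPA2, which encodes a subunit of a GTPase-activating complex for RAL. Its summit pileups were 8, 8, 6 and 32 fragments at 24 h (A to D) and 38, 47, 53 and 50 at 48 h. Every 48 h library was above every 24 h library, although replicate D of 24 h came close in raw pileup. Normalized, it stood at 19.6 against 37.8 in 48 h replicate A, the lowest of 48 h. The log2 difference was 1.94 ± 0.25 (SE, limma adjusted p = 0.000163), and it was the 1 site that also rose by fold enrichment (1.33 ± 0.23, limma adjusted p = 0.0287). At 0 h the site had 57, 48, 45 and 37 fragments. The median over all tested sites was 52, 53, 53 and 51 in these libraries and 24, 17, 38 and 52 in EGF at 24 h. The EGF difference chose the site, so no conclusion is drawn from its level at 0 h.

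The intronic INPP4B site had 12, 11, 13 and 14 fragments at 24 h and 42, 50, 43 and 29 at 48 h. INPP4B is a phosphatase of phosphoinositides that acts on the PI3K pathway. The difference was 1.45 ± 0.23 (SE, limma adjusted p = 0.00137), and the groups did not overlap. The intronic KIDINS220 site had 10, 10, 17 and 28 fragments at 24 h and 41, 43, 47 and 30 at 48 h, a difference of 1.25 ± 0.20 (SE, limma adjusted p = 0.0012). KIDINS220 is a membrane scaffold of neurotrophin receptors.

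The site in an intron of EHF, 2191 bp from its nearest start, had 16, 12, 23 and 29 fragments at 24 h and 39, 56, 52 and 45 at 48 h. EHF is an ETS factor restricted to epithelia. The difference was 1.11 ± 0.18 (SE, limma adjusted p = 0.0014), and the C/EBP matches in its window were the 2 shown above. The intronic site of IL20RA, a cytokine receptor subunit, had 29, 10, 20 and 23 fragments at 24 h and 43, 60, 58 and 32 at 48 h (1.09 ± 0.24, SE, limma adjusted p = 0.0152). The site 49741 bp from SULF2, an extracellular sulfatase of heparan sulfate, had 13, 12, 10 and 15 at 24 h against 28, 31, 32 and 41 at 48 h. The other 4 of the 10 largest rises were near DPP6, DEFB110, FAM174A and POU3F4, with differences of 1.09 to 1.21.

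The largest fall was at the intronic SLC44A1 site, with 21, 14, 34 and 49 fragments at 24 h and 8, 11, 18 and 10 at 48 h. SLC44A1 is a choline transporter. The difference was -1.37 ± 0.22 (SE, limma adjusted p = 0.0014), and raw pileups of the groups overlapped through 24 h replicate B, while normalized ones did not. The site near COG2, a subunit of the Golgi tethering complex, had the lowest adjusted p of all 29244. It held 52, 38, 74 and 95 fragments at 24 h and 27, 29, 30 and 29 at 48 h (-1.36 ± 0.15, SE, limma adjusted p = 1.87e-05), and 104, 126, 145 and 83 at 0 h. These are raw pileups, and libraries differed in their median over all tested sites. That median was 52, 53, 53 and 51 at 0 h and 24, 17, 38 and 52 in EGF at 24 h (A to D).

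The intronic CD44 site had 28, 12, 44 and 54 fragments at 24 h and 13, 12, 15 and 14 at 48 h. CD44 is the hyaluronan receptor of basal and mesenchymal cells. The difference was -1.28 ± 0.22 (SE, limma adjusted p = 0.00271), and replicate B of 24 h lay within the raw range of 48 h. The intronic FAM83B site had 28, 23, 54 and 62 at 24 h against 18, 23, 20 and 13 at 48 h (-1.29 ± 0.19, SE, limma adjusted p = 0.000617). FAM83B is a scaffold linked to EGFR and RAF signaling. This site also fell by fold enrichment (-0.83 ± 0.14, SE, limma adjusted p = 0.0287). The site near SLC38A2, an amino acid transporter, had 31, 20, 36 and 59 at 24 h against 14, 21, 21 and 9 at 48 h. The site near CAB39, a scaffold of the kinase LKB1, had 29, 15, 37 and 63 at 24 h against 17, 15, 15 and 11 at 48 h. Sites near GNG4, CHRM3 and XCL2 fell by a similar size (-1.29 to -1.34).

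Summit pileup, which is not independent of fold enrichment, called in the same direction all 14 sites that fold enrichment called. Besides those above, they included the intronic site of TMEM209 (22, 18, 25 and 31 fragments at 24 h, 10, 10, 10 and 13 at 48 h) and sites near NMNAT3, EIF2S3B and PCDH7. Another 4 sites with the lowest p among rises, near DDX3X, HMCN1, FAM43A and OR51Q1, did not pass by fold enrichment (limma adjusted p of 0.0516 to 0.053).

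**Figure D3:**
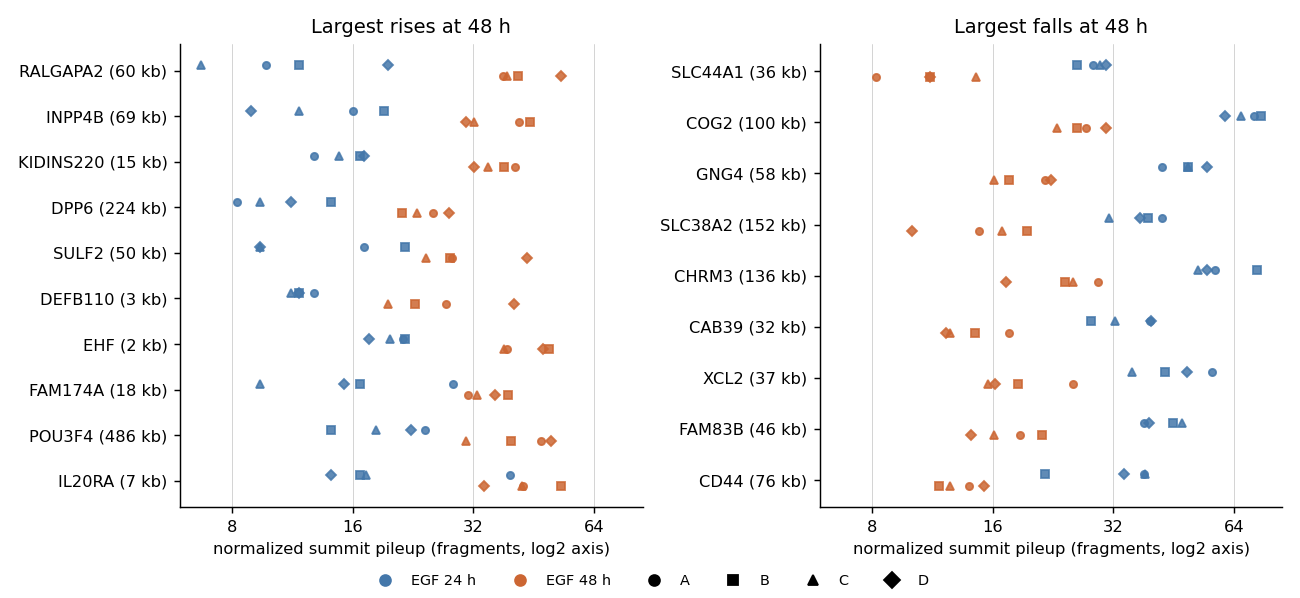
Normalized summit pileup (fragments, log2 axis) at the 10 sites with the largest rise (left) and 9 of the 10 with the largest fall (right), named by the nearest protein-coding start with its distance. Blue points are EGF 24 h and orange points EGF 48 h libraries, and the shape marks the replicate. The times are separated at every site shown except where 24 h replicate A of IL20RA reaches the 48 h range.

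Motifs separated the 2 directions. AP-1 was within 100 bp of the centre of 332 of the 461 sites that fell (72.0%) and 24 of the 187 that rose (12.8%), beside 40.0% of all tested sites. Among distal sites alone these shares were 72.4%, 13.6% and 54.4%. C/EBP showed the opposite order, with 9.63% of the distal sites that fell, 26.7% of those that rose and 16.2% of all distal ones. The E-box bound by SNAI and ZEB factors (CACCTG) was in 7.88%, 25.6% and 16.8%. TEAD (GGAATG) was in 15.97%, 23.9% and 19.0%, and RUNX (TGTGGTT) in 10.3%, 9.66% and 8.33%. These shares describe sites chosen by their difference, and a match is not shown to be bound.

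**Figure D4:**
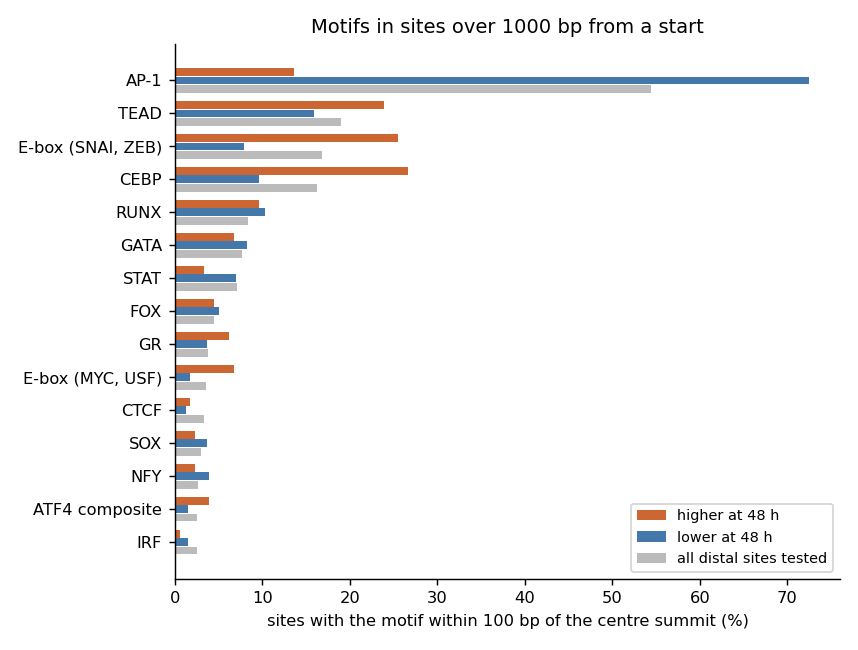
Share of sites with each motif within 100 bp of the centre (%), for distal sites that rose at 48 h (orange), fell at 48 h (blue) and all distal sites tested (gray), for motifs in at least 2% of the latter. AP-1 is in 72.4% of the sites that fell and 13.6% of those that rose.

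The same motifs were tested on detection over all 84482 sites, with 1 value per library, the percent by which a library detected more or fewer sites with the motif than its detection rates predict. AP-1 deviated by 2.27%, 3.55%, 4.64% and 4.28% at 24 h (A to D) and by -5.42%, -2.82%, -3.83% and -1.87% at 48 h. All 24 h libraries were above 0 and all 48 h libraries below, a difference of -7.17 percentage points. The exact permutation test gave the smallest two-sided p that 4 against 4 allows (p = 0.0286, 0.171 after Benjamini-Hochberg adjustment over 24 motifs). The AP-1 difference stayed at the smallest p under each of 12 alternatives, between -6.12 and -8.47 points, single libraries left out included.

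C/EBP went the other way, at -4.47%, -2.58%, -3.04% and -0.42% at 24 h and 0.85%, 2.17%, -0.05% and 5.61% at 48 h. The difference was 4.77 points (exact permutation p = 0.0286, adjusted 0.171), with a p of 0.0571 when any 1 of 24 h A, B or C or 48 h B or D was left out. The SNAI and ZEB E-box differed by 3.78 points and the glucocorticoid receptor motif (ACANNNTGTNC) by 2.07 points, each at an exact permutation p of 0.0286 (adjusted 0.171). The E-box missed that p in 6 of 12 alternatives, and the receptor motif in 2, with a difference of 0.26 points in a wider search window. Hydrocortisone, a ligand of that receptor, was in the medium of all 8 libraries. The TEAD difference was -0.33 points (exact permutation p = 0.629), and 4 of the 24 motifs reached the smallest p, 3 higher and 1 lower, while none stayed below 0.05 after adjustment.

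By mean normalized pileup of distal sites with a motif, relative to all distal sites, AP-1 differed by -0.06 and C/EBP by 0.06 on the log2 scale (exact permutation p = 0.0286 each, adjusted 0.274). Over all sites, promoter-proximal ones included, neither reached the smallest p (AP-1 -0.09, exact permutation p = 0.0571; C/EBP 0.04, p = 0.229). The average site with an AP-1 motif therefore moved little, and 2.84% of the 11707 tested sites with it were called lower, beside 1.58% of all tested sites. Among distal sites, 331 of the 11193 with the motif were called lower, beside 457 of all 20576.

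The sequencing lane named with each library was shared across times in lanes 4 and 7. In lane 4, the AP-1 deviation was 4.64% in 24 h C and -5.42% in 48 h A. In lane 7, it was 2.27% in 24 h A and -1.87% in 48 h D. Each lane gave 1 library per time. Since the times did not overlap, any such pair shows this direction, and a part of the lane in it was not tested.

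The called sites had levels outside EGF that the choice of sites did not use. Each library's median summit pileup over a set was taken relative to its median over all tested sites, as a log2 value. Over the 461 sites that fell, the EGF libraries, which chose them, stood at 0.33 ± 0.08 for 24 h and at -0.58 ± 0.03 for 48 h (SD over 4 libraries). The CTRL libraries were at 0.16, 0.23, 0.25 and 0.16, between the EGF times and nearer to 24 h. Because the EGF difference chose the sites, a place between the EGF times is likely for any other group. The group means of HGF, PBS, OSM and IFNG with EGF also lay there in both sets, and no conclusion is drawn from it. Over the 187 sites that rose, EGF stood at -0.35 ± 0.06 and 0.46 ± 0.03, and CTRL at 0.18, 0.00, 0.00 and -0.06.

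In HGF the sites that rose in EGF were at 0.38, 0.29 and 0.16 at 24 h (A to C) and at 0.32, 0.37 and 0.25 at 48 h. The sites that fell were at -0.13, -0.23 and -0.18 at 24 h and -0.28, -0.49 and -0.19 at 48 h. Neither set differed between the HGF times beyond the spread (exact permutation p = 0.7 and 0.2, where 3 against 3 libraries allow no p below 0.1). In PBS the sites that fell in EGF were at -0.38, -0.15 and -0.17 at 24 h and -0.64, -0.58 and -0.10 at 48 h (exact permutation p = 0.4). The sites that rose were at 0.22, 0.20 and 0.04 at 24 h and at -0.05, -0.05 and 0.00 at 48 h, a difference of -0.19 against the EGF direction at the smallest p possible (exact permutation p = 0.1). HGF 24 h C, HGF 48 h C and all PBS libraries but 24 h A had a peak at only 38.2% to 84.3% of the tested sites, and the missing sites move with these medians.

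IFNG with EGF moved in the EGF direction. The sites that fell in EGF were at 0.25, 0.09 and 0.15 at 24 h (A to C) and at -0.33, -0.53 and -0.18 at 48 h, and those that rose were at -0.30, -0.10 and -0.17 and then at 0.16, 0.05 and 0.00. The times did not overlap in either set (differences of -0.51 and 0.26, exact permutation p = 0.1 each, the smallest possible). That p includes IFNG with EGF 48 h C, which had a peak at only 8 of the 461 sites that fell. Of the 187 that rose, it had a peak at 22, so its medians rest on few sites. The values of 48 h A and B also lay outside the 24 h range. The paper states that low-quality samples of this treatment were removed. OSM had the same signs with smaller differences, -0.20 for the sites that fell and 0.19 for those that rose, also without overlap (exact permutation p = 0.1 each). In TGFB with EGF the sites that fell in EGF were at 0.66, 0.21 and 0.12 at 24 h and at 0.28, 0.11 and 0.47 at 48 h (difference of -0.04, exact permutation p = 0.8). The sites that rose had no peak at all in TGFB 24 h C, and no test was made for them. Detection of the tested sites was as low as 11.2% in IFNG with EGF, 26.9% in OSM and 7.01% in TGFB with EGF. Whether the size of the change differed between these conditions and EGF alone was not tested.

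**Figure D5:**
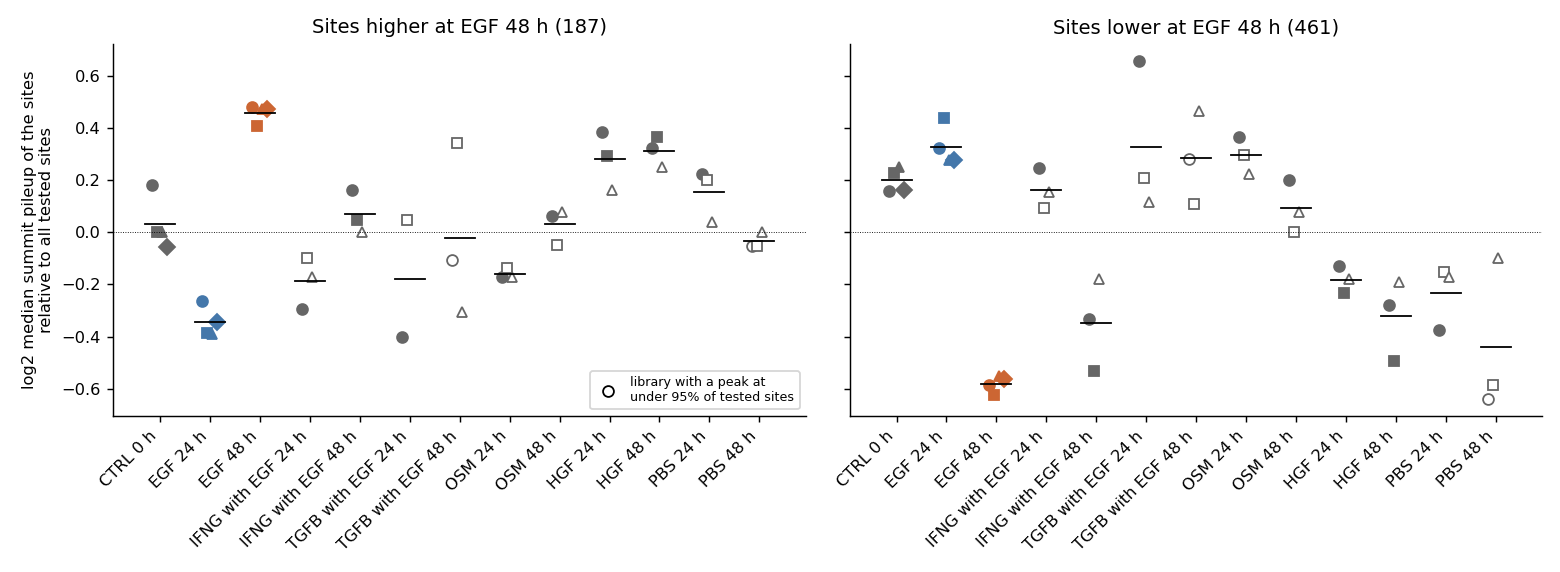
Median summit pileup of the 187 sites that rose (left) and the 461 that fell (right) at EGF 48 h, relative to all tested sites in the same library (log2), by group. Points are libraries, marked by replicate, horizontal bars are group means, and open symbols are libraries with a peak at under 95% of the tested sites (TGFB with EGF 24 h C has no value on the left). CTRL lies between the EGF times in both panels. The choice of sites by the EGF difference makes that place likely for any other group. IFNG with EGF moves from 24 h to 48 h in the direction of EGF.

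The time difference in EGF was compared with those in PBS and HGF on adjusted detection, with all 42 libraries in 1 fit. No library was left out for low quality, and EGF 24 h B, which the study's filter removed, was kept. PBS 48 h C held only 14292 peak regions and TGFB with EGF 48 h B 3355. The EGF difference minus the PBS difference was called at 0 of 84482 sites (0% in either direction, limma, 7354 at an unadjusted p below 0.05). This 0 rested on single libraries, with 119 calls without EGF 24 h B, 89 without EGF 24 h A, 152 without PBS 48 h C and 75 without PBS 24 h A. The EGF difference minus the HGF difference was called at 12 sites in the upward (0.0142%) and 4 in the downward direction (0.00473%), with 157 calls without EGF 24 h B and 0 without HGF 48 h A. The strongest was the site 727 bp from a start of SLC16A5, a monocarboxylate transporter, with no peak in EGF at 24 h, 32, 25, 42 and 35 fragments in EGF at 48 h, 28, 24 and 13 in HGF at 24 h and no peak in HGF at 48 h (interaction of 1.87, limma adjusted p = 0.00631). This site was named after its values were seen.

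The gene lists gave the called sites near known pathway members. A site was counted for a gene when that gene's start was the nearest or within 50000 bp. The lists were chosen with earlier results of these data known, and each share is read against the 0.639% higher and 1.58% lower of all tested sites. EGFR signaling, immediate early and feedback genes had 0 higher and 3 lower of 189 tested sites, a lower share of 1.59%, with a median difference of -0.01. The site 34343 bp from HBEGF, an EGFR ligand, and nearest to PFDN1, had 33, 26, 54 and 83 fragments at 24 h and 18, 32, 29 and 31 at 48 h (-0.97 ± 0.18, SE, limma adjusted p = 0.00428). SPRY2, a feedback inhibitor of receptor tyrosine kinases, had 2 sites that fell, 402820 bp and 298846 bp away (-0.80 and -0.73). None of the 20 promoter sites of this list was called, beside 11 higher and 4 lower of all 8668 promoter-proximal sites. Their median difference of 0.08 equaled that of all promoter-proximal sites.

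YAP/TAZ-TEAD targets had 0 higher and 2 lower of 140 tested sites, a lower share of 1.43%, with a median of 0.01. The 2 were near F3, the tissue factor gene (27, 26, 52 and 62 at 24 h, 27, 26, 33 and 23 at 48 h), and in an intron of PTPN14, a phosphatase that restrains YAP (34, 39, 40 and 67, then 30, 29, 31 and 31). Raw pileups overlapped between times at F3 and not at PTPN14. The differences were -0.77 ± 0.17 and -0.78 ± 0.20 (SE, limma adjusted p = 0.0156 and 0.0322).

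Cell-cell junction genes had 2 higher and 1 lower of 113. The 2 that rose were intronic, and raw pileups of the times overlapped at both through 24 h replicate D. The PKP1 site had 25, 20, 42 and 59 fragments at 24 h and 67, 66, 70 and 53 at 48 h (0.64 ± 0.14, SE, limma adjusted p = 0.0165), PKP1 being a desmosomal plaque protein. The CTNNA1 site, in the gene of alpha-catenin, had 62, 48, 91 and 149 at 24 h against 131, 140, 170 and 114 at 48 h (0.51 ± 0.13, SE, limma adjusted p = 0.0326). The site that fell was 295213 bp from CTNNB1 (-0.92).

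Keratinocyte differentiation genes had 2 higher and 1 lower of 83 and a median of 0.13. The site near SPRR5 and 24127 bp from IVL, both cornified envelope genes, had 25, 14, 36 and 37 at 24 h against 69, 54, 83 and 43 at 48 h (0.94 ± 0.17, SE, limma adjusted p = 0.00392). A second site 2155 bp from IVL fell by 0.49 on the log2 scale. The site 160970 bp from PRDM1, a transcriptional repressor, had 11, 12, 21 and 24 at 24 h against 27, 29, 47 and 40 at 48 h (0.92 ± 0.22, SE, limma adjusted p = 0.0212).

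TGF-beta response genes had 0 higher and 5 lower of 81, a lower share of 6.17%, and a median of -0.08. They were 3 intergenic sites near TGFBI (-0.52 to -0.63), an extracellular matrix gene, 1 site 173224 bp from FN1, the fibronectin gene, and 1 in an intron of SMAD7, an inhibitor of TGF-beta signaling. The FN1 site had 30, 22, 46 and 71 fragments at 24 h and 22, 27, 30 and 23 at 48 h (-0.85 ± 0.17, SE, limma adjusted p = 0.00685). The SMAD7 site had 28, 19, 52 and 54 at 24 h against 28, 19, 25 and 19 at 48 h, with raw values of replicates A and B the same at both times (-0.86 ± 0.19, SE, limma adjusted p = 0.0161). The 3 TGFBI sites lay within 1 neighborhood and are not independent.

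Cell cycle genes had 2 lower of 88, near CCND1, the cyclin D1 gene (23, 32, 37 and 42 at 24 h, 14, 21, 25 and 18 at 48 h, -0.98 ± 0.23, SE, limma adjusted p = 0.0219), and 27367 bp from PCNA in an intron of CDS2 (-1.04). Notch pathway genes had 1 higher, 191591 bp from RBPJ (0.73), and 2 lower, 17526 bp from HEY1 (-0.91) and 466591 bp from JAG1 (-0.97), of 72. Glucocorticoid response genes had 1 higher of 71, in an intron of ZBTB16 (32, 28, 49 and 90 at 24 h, 72, 75, 117 and 77 at 48 h, 0.60 ± 0.14, SE, limma adjusted p = 0.0233), and 1 lower, near KLF9 (-1.22). Hypoxia and glycolysis genes had 1 higher, 19893 bp from SLC2A3 in an intron of FOXJ2 (0.76), and 2 lower, near NDRG1 (-0.69 and -0.61), of 78. Basal markers had 1 lower of 62, 145065 bp from ITGA6 (-1.05). No site was called for the cholesterol (46 tested), ATF4 (69), interferon (30), luminal (29), blood cell (25) or hepatocyte (12) lists. Fibroblast and endothelial markers had 1 called site each, near LUM in an exon of DCN (-0.78) and 87937 bp from CDH5 (0.87). No promoter site of any list was called in either direction. Of all 8668 promoter-proximal sites tested, only 11 were called higher and 4 lower, so this absence is not particular to the lists.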

How the data were processed

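The authors prepared Omni-ATAC libraries and deposited 1 MACS2 peak list per library, called without pooling. Per the labels and methods, the tools were Trimmomatic 0.36.5, Bowtie2 2.3.4.1, Picard, MACS2 2.1.1.20160309.5 and deepTools 3.1.2, on hg38. Each deposited line held a summit with its fold enrichment, a ratio over local background, −log10 p and −log10 q, and the integer score MACS2 derives from them, which was not used. Read counts were not used here, and depth is given by the background coverage.

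Peaks on chromosomes 1 to 22 and X were merged into sites (1 bp overlap, a peak in at least 2 of 8 libraries). Pileup and background were solved from fold enrichment and −log10 p, with a tolerance of 0.001. Limma 3.58.1 (R 4.3.3) was fitted without covariates and p-values were Benjamini-Hochberg adjusted. Single library values were compared by exact permutation. Scripts were tested on simulated data. Annotation was GENCODE 44, and 278 of 278 list genes matched. Summit pileup was added after fold enrichment was examined. Named sites were, for each test and direction, the 10 called sites of largest change, filled to 5 with the lowest p when fewer were called, and called sites near list genes, of which 1 site is not reported here. Members, lists and tests were chosen with earlier results of these data known. P-values measure the spread between these libraries, of 1 collection. The closing section gives the alternatives.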

Additional observations from a re-analysis of the deposited data

Results flagged for a closer look

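Within EGF at 48 h, the relative level of the 187 sites that rose was 0.48, 0.41, 0.47 and 0.47 in replicates A to D, and replicate B lay apart from the other 3 by 0.894 of the range of the group, above Dixon's critical value for 4 libraries. The gap itself is small beside the difference between the times. Chance gives such a gap in about 1 of 20 groups, and 66 groups were examined.

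The time difference in adjusted detection differed between EGF and HGF at 16 sites by a test of the interaction (limma, adjusted p below 0.05). The 4 sites in the downward direction were named after their values were seen. They lay near TTC39A, KCNAB1, ENOX1 and PMP22, had no peak in EGF at 48 h and each held an AP-1 motif. That motif was in 39.6% of all 84482 sites and in 63.6% of the 77 sites seen in EGF at 24 h alone. The KCNAB1 site had 7, 14, 22 and 20 fragments in EGF at 24 h, 29 and 23 in HGF 24 h A and B, and 20, 19 and 9 in HGF 48 h A to C. The ENOX1 site had 12, 11, 14 and 17 in EGF at 24 h, no peak in HGF at 24 h and a peak in HGF 48 h A alone. Leaving out HGF 48 h replicate A gave 0 calls, and leaving out EGF 24 h replicate B gave 157.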

How the results depend on the processing

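Of the calls by adjusted detection, 0 in the fit reported, there were 377 with raw detection, 573 with the same number of strongest peaks, 1135 with all 13 groups in the fit, 3840 with array weights, which gave EGF 24 h D a weight of 15.1, and 3363 without EGF 24 h A and B. Leaving out single libraries gave 0 to 0. Fold enrichment called 14 sites, against 46 with median centring, 50 with cyclic loess, 25 at a −log10 q of at least 5, 1 with a peak in at least 3 libraries of each group, 79 with array weights, 0 at an adjusted p below 0.01, 28 on sites shared by the 7 libraries other than EGF 24 h B, 1 without EGF 24 h A and B, 295 with −log10 p, 648 with summit pileup and 0 to 25 without single libraries. Summit pileup called 648, against 174 at an adjusted p below 0.01, 367 without EGF 24 h A and B, 1 with division by background coverage and 245 (without EGF 48 h B) to 552 without single libraries, with 319 without EGF 48 h A, 336 without EGF 48 h C, 365 without EGF 24 h C, 388 without EGF 48 h D and 434 without EGF 24 h D. The 20 sites named by pileup kept their direction in every alternative, with the call kept in 312 refits and lost in 28. Of these losses, 19 came with division by background coverage. The interaction with PBS, 0 in the fit reported, gave 16 with raw detection and 0 to 152 (without PBS 48 h C) without single libraries, with 119 without EGF 24 h B, 89 without EGF 24 h A and 75 without PBS 24 h A. That with HGF, 16, gave 28 with the replicate block and 0 (without HGF 48 h A) to 157 (without EGF 24 h B), with 133 without EGF 24 h A, 88 without HGF 48 h C, 66 without EGF 48 h A, 48 without HGF 24 h C, 28 without EGF 48 h D and 1 to 9 without HGF 24 h A, HGF 24 h B, HGF 48 h B, EGF 24 h C or EGF 24 h D. Peak number turned from 0.0589 to -0.0661 without EGF 24 h A and B, and ranged from -0.00486 to 0.113 without single libraries. Promoter share turned from -1.02 to 0.642 with the same number of strongest peaks and 2.15 without EGF 24 h A and B, and ranged from -2.41 to 0.0850. Motifs past the threshold, 4, were 7 with the replicate block, 0 by mean pileup and 2 to 4 without single libraries.

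The replicate letters are not stated to mark a shared batch, and the pairing was not taken as shown, because 1 letter of 4 fell short. Same-letter deviations in summit pileup correlated at 0.13, -0.03, 0.12 and 0.15 for A to D. EGF 24 h A, C and D each matched their own letter best, and B matched 48 h A best. With the letters as a replicate block, pileup called 961 sites, fold enrichment 81 and adjusted detection 0.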
